A study of Homo sapiens with 9 samples.

Results

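The 78 genes described here encode protein subunits of the mitochondrial respiratory chain and of the ATP synthase. The rule for membership uses gene symbols and no measured value, although it was written with earlier results of these data known. Symbols that begin with NDUFAF, which name assembly factors, are left out. The rule otherwise takes symbols that begin with NDUFA, NDUFB, NDUFC, NDUFS, NDUFV, UQCR, COX4 to COX8, ATP5F1, ATP5M or ATP5P. It also takes SDHA, SDHC, SDHD, CYC1 and CYCS. Of 83 such symbols, 2 were pseudogenes and 3 were non-coding RNAs by their RefSeq type and were set aside, which left 78 of the 19775 genes measured. The members fell into complex I (33 genes), complex II (3 genes), complex III with cytochrome c (8 genes), complex IV (17 genes) and complex V, the ATP synthase (17 genes). Other subunits of these complexes were not analysed here. Each gene was represented by its brightest probe set, the group of short probes whose summary stands for a transcript, and 44 members had more than 1 probe set.

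The cells were HepG2, a human hepatoma line that still makes many liver proteins. All were kept in medium free of phenol red and had been split 1 day earlier. The 9 Affymetrix arrays comprised 3 of cells given 100 nM GW7647 for 6 h, 3 of cells given 100 nM GW7647 for 24 h, and 3 of cells given the solvent DMSO (vehicle). GW7647 is a synthetic agonist of PPARα, the nuclear receptor through which fatty acids raise genes of fat burning in liver, and the study asks which transcripts follow it early and late. The single vehicle group has no stated duration, so exposure and time in culture cannot be told apart. The labels number the replicates without saying that they were separate cultures. The p-values therefore set differences against a spread among arrays that may be only technical, and they may not extend to new cultures.

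The respiratory chain passes electrons from NADH, through complex I, and from succinate, through complex II, to ubiquinone, then through complex III and the small carrier cytochrome c to complex IV, which reduces oxygen. Complexes I, III and IV pump protons across the inner mitochondrial membrane, and the ATP synthase uses their return to make ATP. Nuclear genes encode most subunits, and the mitochondrial genome encodes the others. In liver the chain consumes the NADH and reduced flavins that fatty acid oxidation supplies. Transcription of many nuclear subunit genes is known to depend on the nuclear respiratory factors NRF1 and GABP and on YY1, with coactivators of the PGC-1 family.

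All values are the deposited log2 signals, where a difference of 1 is a 2-fold change, and differences between groups were taken within a probe set. Signals of different probe sets do not rank transcript amounts, and brighter or dimmer here describes only the probe sets' signals. Array medians over all probe sets lay between 5.61 and 5.68. A gene was called higher or lower where limma's moderated test gave a Benjamini-Hochberg adjusted p under 0.05 over the 19775 genes. Of 10 hepatocyte and hepatoma markers, 9 were measured and all 9 lay above the median signal of all genes, 6.74. Of 20 markers of other cell types, 19 were measured and 7 lay above that median. Their summed level spanned 12.94 to 13.08 log2 units in vehicle, 12.90 to 12.95 at 6 h and 13.07 to 13.19 at 24 h, so the 24 h arrays lay wholly above the 6 h arrays. The sum was made on the linear scale, so a few bright genes such as EPCAM (11.36) and ACTA2 (10.93) dominate it. Summed by cell type, the cholangiocyte, stellate and macrophage markers lay wholly higher at 24 h than at 6 h. The endothelial and muscle markers overlapped between these times. Between 24 h and 6 h, 2 of the 19 were called, the stellate cell marker ACTA2 (0.39 ± 0.05 (SE), limma adjusted p = 5.54e-04) and the monocyte marker CD14 (0.28 ± 0.05, adjusted p = 0.00674). ACTA2 was also higher at 24 h than in vehicle (0.27). CD14 was lower at 6 h than in vehicle (-0.29, limma adjusted p = 0.0159) and was not called at 24 h against vehicle. Among the hepatocyte markers, TTR and FGB were lower at 24 h than in vehicle (-0.55 and -0.67) and than at 6 h (-0.46 and -0.54), and FOXA2 was higher (0.25 and 0.59). At 6 h FOXA2 was lower than in vehicle (-0.34, limma adjusted p = 0.0132). The part of these markers in the results was not tested. The median standard error of a member's difference was 0.06, which 3 arrays per group set.

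After 6 h of GW7647 no subunit gene was called, against 3.54% of all genes (1.64% higher and 1.91% lower). The differences from vehicle spanned -0.20 to 0.10 log2 units, and the median was -0.02, against 0.00 over all genes. Only 1 member, the complex I membrane-arm subunit NDUFB11, had an unadjusted p under 0.05 (log2 change -0.11 ± 0.05 (SE), limma adjusted p = 0.278). The 95% confidence intervals of all 78 members lay between 0.728-fold and 1.24-fold of vehicle. In bulk RNA, fewer cells of a type and less RNA per cell cannot be told apart. A positive difference was seen in 21 of 78 members (26.9%), against 51.5% of all genes. That count depended on single vehicle arrays and on the scaling: it was 14 without vehicle replicate 1, 37 without vehicle replicate 2, 12 after median centring and 34 after quantile normalization. The 6 h arrays lay entirely above the vehicle arrays in 1 member, NDUFB3, and entirely below them in 9, together 12.8% of members, against 20.8% of all genes (10.5% above and 10.3% below). The members with the lowest values in their complexes were NDUFB11, SDHA (-0.08), UQCRC1 (-0.09), COX7B2 (-0.20) and ATP5MC1 (-0.13), with adjusted p between 0.278 and 0.626 in limma.

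After 24 h of GW7647, 5 subunit genes rose and 2 fell relative to vehicle. NDUFA7, NDUFV3 and NDUFB1 of complex I, COX7A2L of complex IV and ATP5MC2 of the ATP synthase rose between 1.20-fold and 1.37-fold. CYCS, which encodes cytochrome c, and NDUFS4 of complex I fell to 0.812-fold and 0.854-fold. The 7 called members were 8.97% of the 78, close to the 8.17% called among all genes. By direction, 5.38% of all genes were higher and 2.8% lower. No member changed by as much as 1.5-fold, and 77 of 78 intervals lay within 1.5-fold of vehicle in either direction. NDUFA7 was the exception, with an upper bound of 1.53. The median difference over members was 0.03, against 0.00 over all genes, and 52 of 78 members (66.7%) were positive, against 51.1% of all genes. The 24 h arrays lay entirely above the vehicle arrays in 20 members and entirely below in 5, together 32.1%, against 23% of all genes (14% above and 8.95% below).

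Between 24 h and 6 h of GW7647, 13 subunit genes were higher and 2 lower at 24 h. Beside the 7 above, with the same directions, the rises were those of NDUFA1, NDUFA3, NDUFB10, NDUFB11 and NDUFC1 of complex I, UQCRC1 of complex III, COX8A of complex IV and ATP5MC1 of the ATP synthase. Both comparisons share the 24 h arrays. The 15 called members were 19.2% of the 78, against 13.8% of all genes, of which 9.23% were higher and 4.57% lower. The median difference was 0.06, against -0.01 over all genes, and 55 of 78 members (70.5%) were positive, against 47% of all genes. The 24 h arrays lay entirely above the 6 h arrays in 37 members and entirely below in 4, together 52.6%, against 33% of all genes (19.2% above and 13.8% below). The 3′ minus 5′ signal of GAPDH, a sign of RNA integrity, was 0.018 to 0.022 on the 24 h arrays. That was below the 0.045 to 0.070 of the 6 h arrays, but the vehicle arrays, at -0.008 to 0.076, spanned both. The same signal of actin was 0.25 to 0.40 on the 24 h arrays and 0.27 to 0.30 on the 6 h arrays, so these overlapped. The part of RNA integrity in these counts was not tested.

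**Figure D1:**
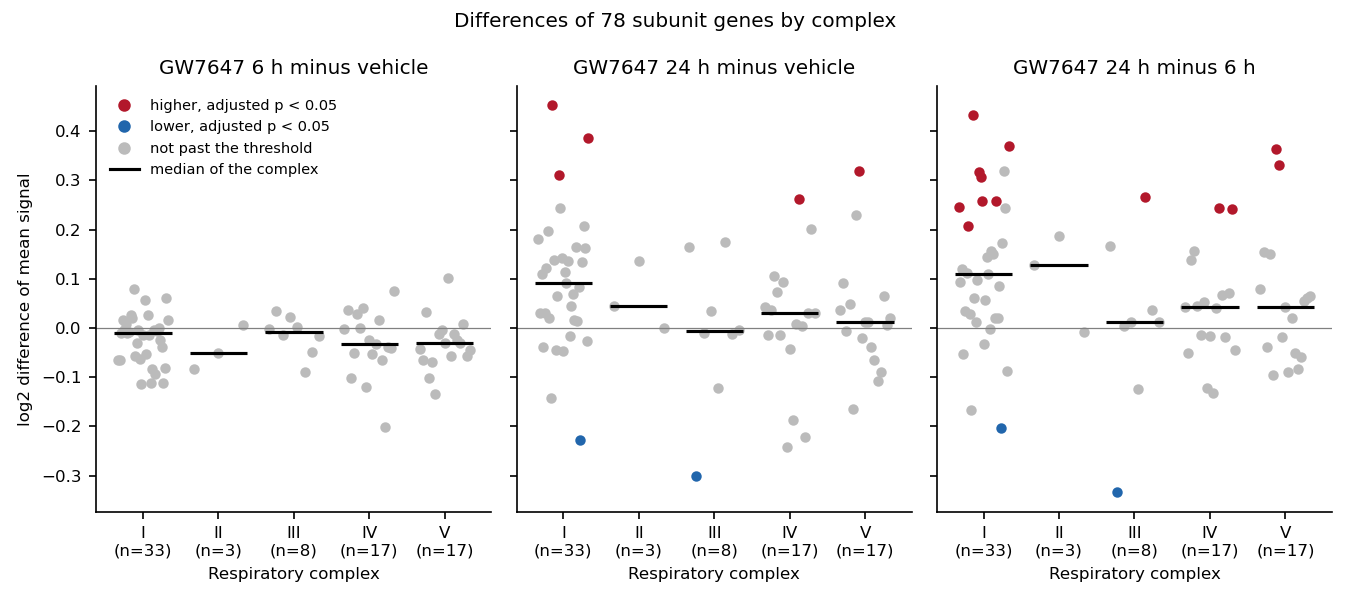
Log2 difference of mean signal (vertical axis) of each of the 78 subunit genes by respiratory complex (horizontal axis), 1 point per gene, for the 3 comparisons; red and blue points passed the limma threshold and black bars are medians. At 6 h no gene passed, and at 24 h against vehicle 5 rose and 2 fell. At 24 h against 6 h 13 were higher and 2 lower. Of these 15, 9 were in complex I, which holds 33 of the 78 genes.

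Most members gave bright signals, and brighter genes were called more often throughout the array. Of the 78 members, 71 lay above the median signal of all genes. Among those 71 the calls were 9.86% at 24 h against vehicle, where 14.3% of all genes above that median were called. For 24 h against 6 h the shares were 21.1% and 24.3%. The 71 members all had a mean signal over 9, as did 4695 genes in all. The 24 h and 6 h arrays lay entirely apart in 57.7% of these members and in 62.8% of these genes, and the difference was positive in 77.5% and 60.5%. The 24 h and vehicle arrays lay apart in 35.2% and 41.8%, and the difference was positive in 70.4% and 56%. At 6 h the median difference from vehicle was -0.02 in both sets. The 6 h and vehicle arrays lay apart in 14.1% and 32.4%, and the difference was positive in 25.4% and 40%. Beside genes of like signal, the members' shares of calls and of arrays lying apart were not higher. The 7 dim members were COX4I2, COX6A2, COX6B2, COX7A1, COX7B2, COX8C and ATP5MF, and none of them was called in any comparison.

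The share of calls differed in value among complexes. At 24 h against 6 h, 9 of 33 complex I members were called (27.3%), 0 of 3 in complex II and 2 of 8 in complex III (25%). In complex IV 2 of 17 were called (11.8%), and in complex V 2 of 17 (11.8%). Over all genes the share was 13.8%, and over all genes with a mean signal over 9 it was 27.8%, near that of complex I. Median differences were 0.11, 0.13, 0.01, 0.04 and 0.04 log2 units for complexes I to V. At 24 h against vehicle the medians were 0.09, 0.05, -0.01, 0.03 and 0.01. Within complex I, none of the 5 measured core subunits was called, while 8 of the 28 accessory subunits were higher and 1 lower at 24 h against 6 h. The core subunits NDUFS7 and NDUFV1 were both called in that comparison when only the compared groups were fitted, with the trended robust prior, among genes above the median signal, with array weights or without vehicle replicate 2. The medians were nonetheless 0.09 for the core and 0.11 for the accessory subunits. Whether complexes, or core and accessory subunits, differ was not tested.

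The promoters of 4 members are shown because these genes mark the directions seen at 24 h: NDUFA7 had the largest rise, ATP5MC2 the largest rise in the ATP synthase, and CYCS and NDUFS4 were the members that fell. Each line holds 250 bases before to 50 bases after the annotated start of transcription, read 5′ to 3′ on the gene's strand, from RefSeq for GRCh38.p14. Capitals mark the motifs searched on both strands: the NRF1 core GCATGCG, the ETS motif CCGGAAG bound by GABP, the YY1 core AAGATGG and the hypoxia core ACGTG. NDUFA7 lies at chr19:8321326-8321625 on the minus strand, ATP5MC2 at chr12:53676034-53676333 on the minus strand, CYCS at chr7:25125211-25125510 on the minus strand and NDUFS4 at chr5:53560389-53560688 on the plus strand.
NDUFA7: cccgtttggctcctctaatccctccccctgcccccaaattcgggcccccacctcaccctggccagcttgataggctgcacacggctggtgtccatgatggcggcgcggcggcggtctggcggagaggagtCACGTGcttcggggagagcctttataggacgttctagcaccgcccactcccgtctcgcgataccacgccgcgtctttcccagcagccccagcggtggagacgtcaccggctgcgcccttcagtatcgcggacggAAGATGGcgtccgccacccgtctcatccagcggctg
ATP5MC2: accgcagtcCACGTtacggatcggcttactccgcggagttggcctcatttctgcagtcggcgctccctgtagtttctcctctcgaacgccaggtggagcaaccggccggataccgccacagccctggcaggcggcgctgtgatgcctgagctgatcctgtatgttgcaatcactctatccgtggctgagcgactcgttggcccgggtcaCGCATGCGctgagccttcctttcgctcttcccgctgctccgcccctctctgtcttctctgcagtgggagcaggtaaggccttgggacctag
CYCS: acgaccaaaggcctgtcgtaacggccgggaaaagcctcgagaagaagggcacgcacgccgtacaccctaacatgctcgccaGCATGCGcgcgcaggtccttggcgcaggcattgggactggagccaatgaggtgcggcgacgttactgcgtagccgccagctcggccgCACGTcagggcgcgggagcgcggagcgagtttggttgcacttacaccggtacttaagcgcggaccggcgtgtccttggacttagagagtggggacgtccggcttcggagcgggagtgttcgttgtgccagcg
NDUFS4: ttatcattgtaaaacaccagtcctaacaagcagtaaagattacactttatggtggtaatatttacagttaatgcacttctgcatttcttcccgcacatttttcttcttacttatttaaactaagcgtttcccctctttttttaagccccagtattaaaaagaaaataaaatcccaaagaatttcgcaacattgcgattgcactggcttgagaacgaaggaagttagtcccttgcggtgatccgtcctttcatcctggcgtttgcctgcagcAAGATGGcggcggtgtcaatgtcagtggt
NDUFA7 and NDUFS4 carried the YY1 core 14 and 21 bases after the start, although the first rose and the other fell. CYCS carried the NRF1 core at 169 bases before the start, and ATP5MC2 carried it on both strands in overlapping copies at 41 and 40 bases before it. NDUFA7, ATP5MC2 and CYCS also held the hypoxia core, in NDUFA7 as an overlapping pair on both strands.

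Of the 78 members, 66 had a promoter in the RefSeq table, the 15 called members among them. Within these 300-base windows the NRF1 core occurred in 19.7% of the members, against 5.19% of the 15384 measured genes with a promoter. The ETS motif occurred in 27.3% of members and 14.4% of measured genes, and the YY1 core in 22.7% and 6.45%. The hypoxia core occurred in 27.3% of members and 24.1% of measured genes. At least 1 of the NRF1, ETS and YY1 motifs was found in 54.5% of members and 23.3% of measured genes. Among the 15 called members the shares were 13.3% for NRF1, 13.3% for ETS, 26.7% for YY1 and 40.0% for the hypoxia core. Among the 51 members that were not called they were 21.6%, 31.4%, 21.6% and 23.5%. A match describes letters in a window and does not show that a factor binds there.

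**Figure D2:**
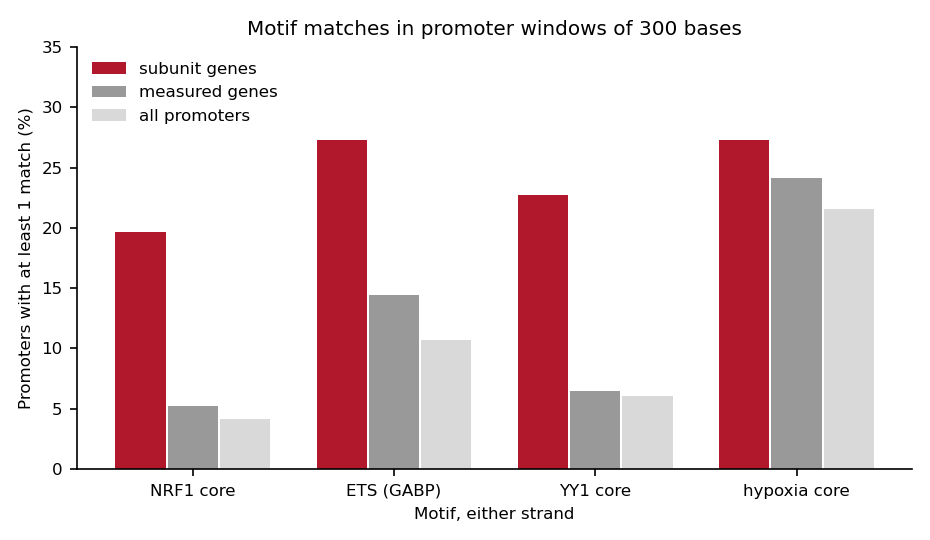
Share of promoter windows of 300 bases that hold at least 1 match on either strand (vertical axis, percent) for 4 motifs, in the 66 subunit genes, the 15384 measured genes and all 27305 promoters of the table. The NRF1, ETS and YY1 bars of the subunit genes stand at 19.7%, 27.3% and 22.7%, against 5.19%, 14.4% and 6.45% in measured genes, and the hypoxia bars are closer together.

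In the NADH-binding and peripheral arm of complex I, which takes electrons from NADH, NDUFA7 and NDUFV3 rose and NDUFS4 fell. NDUFA7, an accessory subunit of this arm, read 9.28, 9.53 and 9.52 on the vehicle arrays, 9.48, 9.41 and 9.50 at 6 h and 9.92, 9.92 and 9.85 at 24 h. Its 24 h arrays lay above all the others, while the 6 h arrays fell within the vehicle range. The rise was 1.37-fold over vehicle (95% interval 1.23 to 1.53, log2 0.45 ± 0.07 (SE), limma adjusted p = 0.0032) and 1.35-fold over 6 h (1.21 to 1.51, adjusted p = 0.0024). NDUFV3, a small accessory subunit of the NADH-binding module, read 10.03, 10.08 and 10.10 in vehicle, 10.10, 10.11 and 10.03 at 6 h and 10.51, 10.50 and 10.34 at 24 h. Again only the 24 h arrays stood apart, with a rise of 1.31-fold over vehicle (1.19 to 1.44, adjusted p = 0.00321) and 1.29-fold over 6 h (adjusted p = 0.00238).

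NDUFS4 is an accessory subunit whose inherited loss is a known cause of Leigh syndrome. It read 9.43, 9.50 and 9.55 in vehicle, 9.47, 9.47 and 9.47 at 6 h and 9.27, 9.32 and 9.21 at 24 h. The 24 h arrays lay below all the others, by -0.23 ± 0.06 log2 units (SE) from vehicle (limma adjusted p = 0.0306) and -0.20 ± 0.06 from 6 h (adjusted p = 0.0337). The call against vehicle was lost without vehicle replicate 2 or 3, 6 h replicate 1 or 3, or 24 h replicate 1 or 3, with adjusted p up to 0.104. The call against 6 h was lost without any of the 6 h arrays or 24 h replicate 1 or 3, with adjusted p up to 0.114. The catalytic subunits of the same arm were not called: NDUFV1, which binds NADH, averaged 11.52 ± 0.05 on the 24 h arrays against 11.27 ± 0.10 at 6 h (SD, n = 3 each, limma adjusted p = 0.0786). NDUFS7, which carries the last iron-sulphur cluster before ubiquinone, averaged 9.63 ± 0.10 and 9.32 ± 0.04, a difference of 0.32 ± 0.10 (SE, adjusted p = 0.0651). It was the largest difference among the 63 members not called in that comparison, and it passed in 7 alternatives, among them the fit of the compared groups only (adjusted p = 0.0126) and the fit without vehicle replicate 2 (0.00845). NDUFS1, the largest core subunit, stood at 10.52 ± 0.03 at 24 h and 10.50 ± 0.06 at 6 h.

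The membrane arm of complex I pumps protons, and 6 of its nuclear accessory subunits, NDUFA1, NDUFA3, NDUFB1, NDUFB10, NDUFB11 and NDUFC1, were higher at 24 h than at 6 h. NDUFB1 was also higher than in vehicle: it read 11.48, 11.51 and 11.55 in vehicle, 11.53, 11.52 and 11.47 at 6 h and 11.76, 11.87 and 11.84 at 24 h. That was 1.24-fold over vehicle (95% interval 1.14 to 1.35, limma adjusted p = 0.00537) and 1.25-fold over 6 h (1.15 to 1.35, adjusted p = 0.00294). NDUFB11 read 11.16, 11.19 and 11.23 in vehicle, 11.08, 11.06 and 11.09 at 6 h and 11.33, 11.35 and 11.33 at 24 h. Its 3 groups did not overlap, with the 6 h arrays lowest and the 24 h arrays highest. NDUFC1 read 11.67, 11.64 and 11.71 in vehicle, 11.62, 11.57 and 11.55 at 6 h and 11.81, 11.86 and 11.84 at 24 h, in the same order without overlap. For both genes the difference between 24 h and 6 h was 0.26 ± 0.05 log2 units (SE, limma adjusted p = 0.00579 and 0.00642), while neither time passed against vehicle alone.

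NDUFA1, NDUFA3 and NDUFB10 had wider spreads. NDUFA1 read 11.43, 11.63 and 11.48 in vehicle, 11.50, 11.47 and 11.38 at 6 h and 11.64, 11.75 and 11.70 at 24 h, a difference of 0.25 ± 0.07 between 24 h and 6 h (SE, limma adjusted p = 0.0309). NDUFB10 read 11.35, 11.64 and 11.54 in vehicle, 11.43, 11.48 and 11.43 at 6 h and 11.71, 11.79 and 11.76 at 24 h, a difference of 0.31 ± 0.07 (adjusted p = 0.0158). In both genes vehicle replicate 2 was the highest of its group and came within 0.1 log2 units of the lowest 24 h array. NDUFA3 read 10.19, 10.21 and 10.27 in vehicle, 10.23, 10.21 and 10.20 at 6 h and 10.41, 10.51 and 10.33 at 24 h, a difference of 0.21 ± 0.06 (adjusted p = 0.0385). These 3 calls depended on single arrays. NDUFB10 lost its call without 6 h replicate 1 or 3 or 24 h replicate 2, with adjusted p up to 0.0599. NDUFA1 lost it without any of the 6 h arrays or 24 h replicate 2 or 3 (up to 0.118). NDUFA3 lost it without any of the 6 h arrays or 24 h replicate 1 or 2 (up to 0.134).

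**Figure D3:**
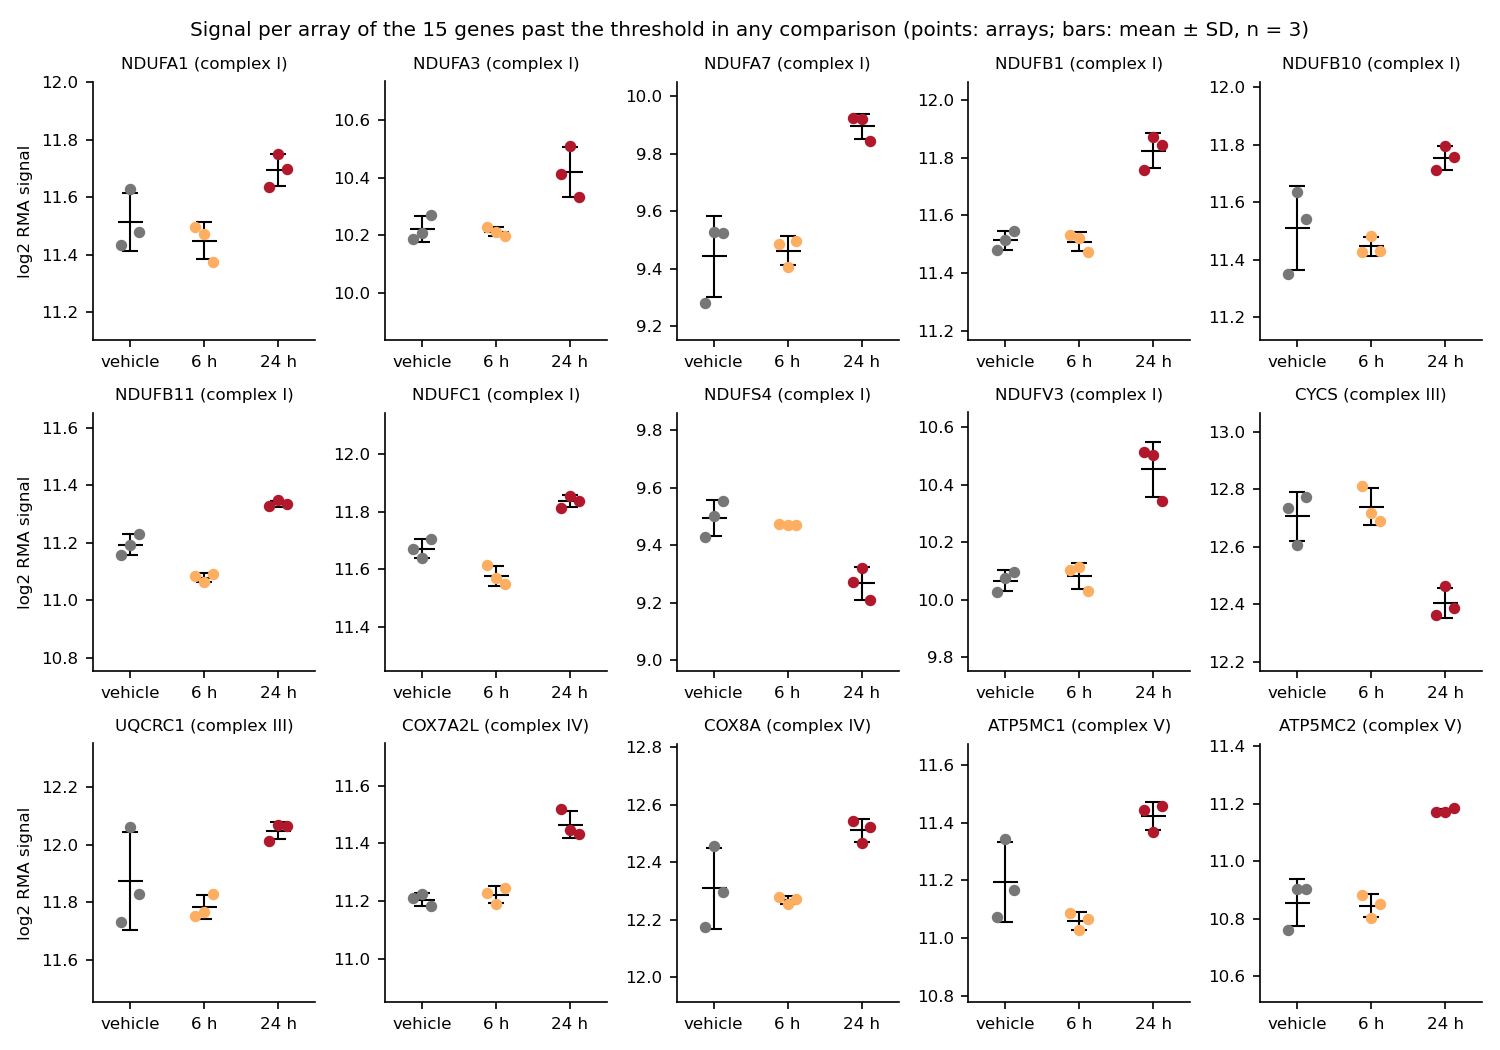
Log2 RMA signal (vertical axes, each spanning the same range) on each of the 9 arrays by group (horizontal axes) for the 15 genes called in any comparison; points are arrays and bars are the mean ± SD of 3 arrays. The 24 h points lie above the 6 h points in 13 genes and below them in NDUFS4 and CYCS, and 1 vehicle point, that of replicate 2, lies high in NDUFB10, UQCRC1, COX8A and ATP5MC1.

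Complex II, which is also the succinate dehydrogenase of the Krebs cycle, had no called member. SDHA, its flavoprotein, read 11.36, 11.53 and 11.37 in vehicle, 11.34, 11.29 and 11.38 at 6 h and 11.44, 11.41 and 11.54 at 24 h. SDHC, a membrane anchor, read 10.59, 10.95 and 10.62 in vehicle, 10.71, 10.61 and 10.68 at 6 h and 10.93, 10.79 and 10.83 at 24 h. For both, the 24 h arrays lay above the 6 h arrays while vehicle overlapped them. The SDHC difference of 24 h from 6 h was 0.19 ± 0.09 (SE, limma adjusted p = 0.222), and its interval reached from 0.992-fold to 1.31-fold. Without vehicle replicate 2, SDHC passed at 24 h against vehicle (0.25, adjusted p = 0.0361). SDHD, the other anchor, averaged 10.88 ± 0.08 at 24 h and 10.88 ± 0.10 in vehicle (SD, n = 3 arrays each).

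In complex III and cytochrome c, CYCS fell and UQCRC1 was higher at 24 h than at 6 h. CYCS encodes cytochrome c, which shuttles electrons between complexes III and IV and, released into the cytosol, triggers apoptosis. It read 12.74, 12.61 and 12.77 in vehicle, 12.81, 12.72 and 12.69 at 6 h and 12.36, 12.46 and 12.39 at 24 h. The 24 h arrays lay below all 6 others. The fall was to 0.812-fold of vehicle (95% interval 0.738 to 0.894, log2 -0.30 ± 0.06 (SE), limma adjusted p = 0.0143) and to 0.793-fold of 6 h (0.720 to 0.874, adjusted p = 0.00517). Against vehicle the call was lost when vehicle replicate 1 (adjusted p = 0.0513), vehicle replicate 3 (0.052) or 24 h replicate 1 (0.0554) was left out. Of the 2 other, dimmer CYCS probe sets, 1 also fell, by 0.36 log2 units from vehicle (limma adjusted p = 0.0449 over all single-symbol probe sets), and the other differed by -0.06 ± 0.22 (SE).

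UQCRC1, a core protein of complex III, read 11.73, 12.06 and 11.83 in vehicle, 11.75, 11.77 and 11.83 at 6 h and 12.01, 12.07 and 12.06 at 24 h. Vehicle replicate 2 lay among the 24 h arrays, so 24 h and vehicle overlapped. The difference of 24 h from 6 h was 0.27 ± 0.08 (SE, limma adjusted p = 0.0439). That call was lost without vehicle replicate 3, any of the 6 h arrays or any of the 24 h arrays, with adjusted p up to 0.132. The other 6 members were not called. CYC1, the cytochrome that passes electrons to cytochrome c, averaged 12.08 ± 0.03 at 24 h and 11.91 ± 0.09 in vehicle (SD, n = 3 arrays each, adjusted p = 0.146), and UQCRQ averaged 12.47 ± 0.05 and 12.48 ± 0.06.

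In complex IV, cytochrome c oxidase, COX7A2L rose and COX8A was higher at 24 h than at 6 h. COX7A2L encodes a protein known to hold complexes III and IV together in supercomplexes. It read 11.21, 11.22 and 11.18 in vehicle, 11.23, 11.19 and 11.25 at 6 h and 11.52, 11.45 and 11.43 at 24 h. The 24 h arrays lay above the 6 others, by 1.20-fold over vehicle (95% interval 1.11 to 1.30, log2 0.26 ± 0.05 (SE), limma adjusted p = 0.0105) and 1.18-fold over 6 h (adjusted p = 0.00971). It has 1 probe set, which ends in a form that marks no shared probes, and it was called with any single array left out. COX8A, a small structural subunit, read 12.17, 12.46 and 12.30 in vehicle, 12.28, 12.25 and 12.27 at 6 h and 12.54, 12.47 and 12.52 at 24 h. The vehicle arrays spread from the lowest of all values to just below the 24 h arrays. Its difference of 24 h from 6 h, 0.24 ± 0.07 (SE, adjusted p = 0.0411), was not called without vehicle replicate 3, any of the 6 h arrays or any of the 24 h arrays, with adjusted p up to 0.126.

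Several complex IV subunits exist as isoforms of different tissues. COX4I1, the common form, averaged 12.71 in vehicle, 12.71 at 6 h and 12.75 at 24 h, and COX4I2, the form known from lung and from cells short of oxygen, averaged 6.63, 6.66 and 6.61 in the same order. The largest difference of either gene from vehicle was 0.04. The common forms COX6A1, COX6B1, COX7A2 and COX7B differed from vehicle by 0.07, 0.09, 0.01 and 0.00 at 24 h, and none was called. The muscle forms COX6A2 and COX7A1 differed by -0.02 and -0.19, and COX6B2, COX7B2 and COX8C, known mainly from testis, by -0.24, -0.22 and 0.03. None of these 5 was called in any comparison, and all 5 lay below the median signal of all genes.

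In the ATP synthase, ATP5MC2 rose and ATP5MC1 was higher at 24 h than at 6 h. ATP5MC1, ATP5MC2 and ATP5MC3 encode the same mature protein, the c subunit whose ring turns as protons pass, behind different mitochondrial import sequences. ATP5MC2 read 10.76, 10.90 and 10.90 in vehicle, 10.88, 10.80 and 10.85 at 6 h and 11.17, 11.17 and 11.18 at 24 h, so only the 24 h arrays stood apart. The rise was 1.25-fold over vehicle (95% interval 1.14 to 1.36, limma adjusted p = 0.00603) and 1.26-fold over 6 h (1.15 to 1.37, adjusted p = 0.003). ATP5MC1 read 11.07, 11.35 and 11.17 in vehicle, 11.09, 11.03 and 11.06 at 6 h and 11.44, 11.37 and 11.46 at 24 h. Its 24 h arrays were the highest and vehicle spanned the gap between 6 h and 24 h. It was 1.29-fold higher at 24 h than at 6 h (1.16 to 1.43, adjusted p = 0.00593), and its difference from vehicle was 0.23 ± 0.07 (SE, adjusted p = 0.0759). ATP5MC3 averaged 12.81 ± 0.04 at 24 h and 12.83 ± 0.02 in vehicle (SD, n = 3 arrays each), a difference of -0.02 ± 0.05 (SE).

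The catalytic head of the ATP synthase, F1, which makes ATP, had no called member among its 5 genes. ATP5F1A and ATP5F1B, which encode its alternating large subunits, averaged 13.49 ± 0.03 and 13.11 ± 0.02 at 24 h, against 13.45 ± 0.05 and 13.02 ± 0.05 in vehicle (SD, n = 3 arrays each). ATP5F1B differed by 0.16 ± 0.05 between 24 h and 6 h (SE, limma adjusted p = 0.0745). ATP5F1E, the smallest subunit of the head, differed by -0.16 ± 0.07 from vehicle at 24 h (adjusted p = 0.201). Both called genes were thus among the 12 members of the membrane part and stalks.

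**Figure D4:**
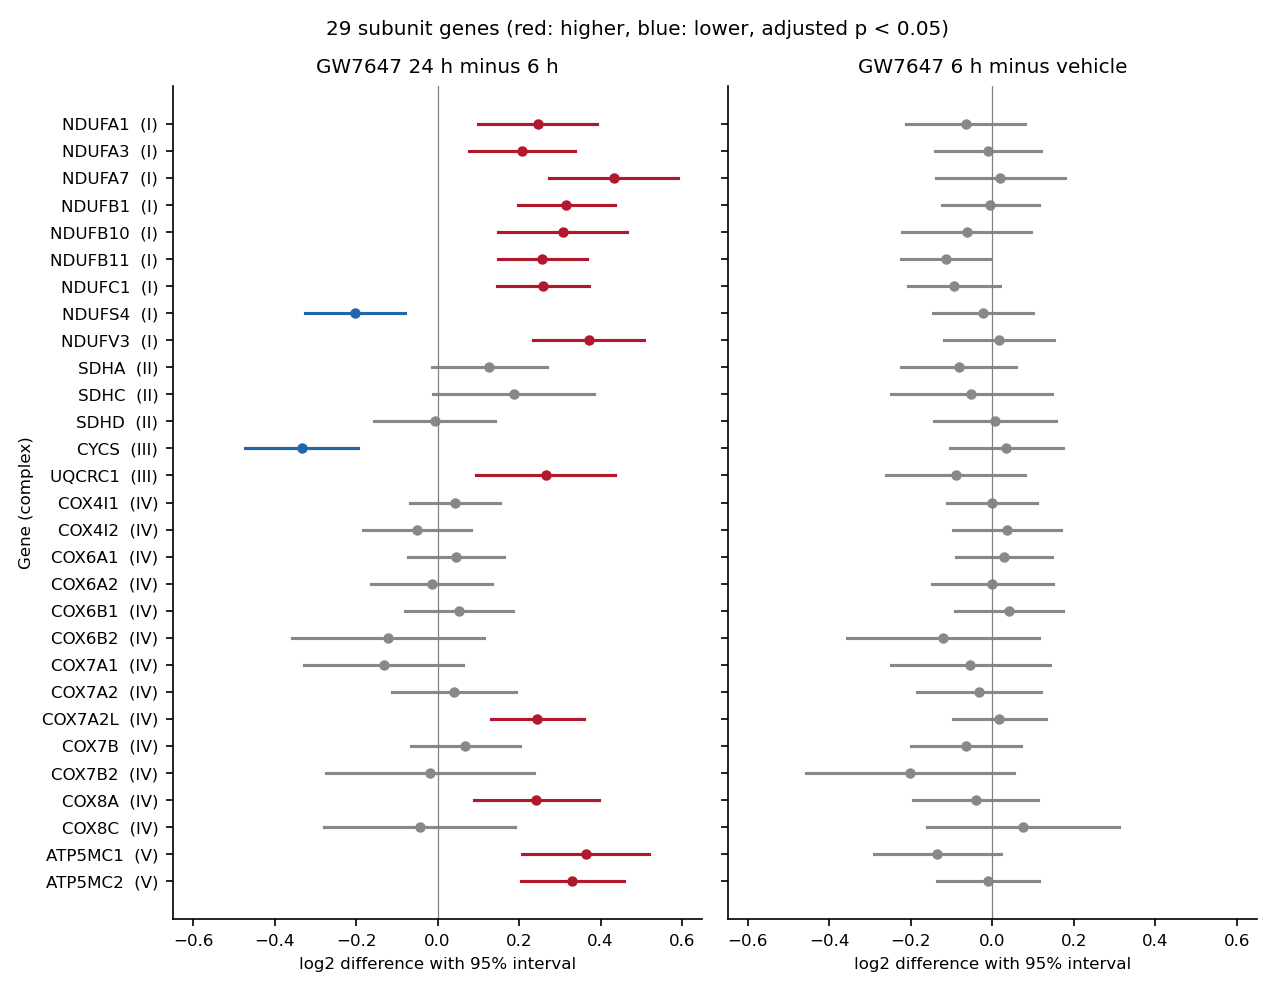
Log2 difference (horizontal axes) with its 95% interval from limma for 29 subunit genes in order of complex (vertical axis), namely the 15 called genes, complex II, the isoforms of complex IV and the largest change of each complex; left, 24 h minus 6 h, and right, 6 h minus vehicle. On the left 13 intervals lie wholly above 0 in red and 2 wholly below in blue, and on the right no gene was called.

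Vehicle replicate 2 carried high values in several of these genes. The number of members above their own 9-array mean was 18, 50 and 38 on the vehicle arrays, 29, 23 and 10 on the 6 h arrays, and 52, 61 and 45 on the 24 h arrays. Without vehicle replicate 2, 12 members were higher and 1 lower at 24 h against vehicle, 13 in place of 7. Leaving out any other array gave 5 to 7 calls. At 24 h against 6 h, 20 members were called without vehicle replicate 2, which enters that comparison only through the shared estimate of spread, and 9 without 6 h replicate 1 or 6 h replicate 3. Against vehicle at 24 h, ATP5MC2, COX7A2L, NDUFA7, NDUFB1 and NDUFV3 were called with any single array left out. The shares of all genes called with an array left out are not given here, so these counts are not particular to the members.

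The result also depended on which probe set stood for a gene. A probe set that ends in _s_at or _x_at may hold probes shared between transcripts, and 41 members were represented by such a set. NDUFB1, NDUFV3 and ATP5MC2 were among them. Their second probe sets, all far dimmer, differed from vehicle at 24 h by -0.05 ± 0.07, -0.13 ± 0.08 and -0.19 ± 0.11 log2 units (SE), and none was called. The second probe set of NDUFA7 differed by -0.22 ± 0.06 (limma adjusted p = 0.0674 over all single-symbol probe sets), opposite in sign to the brighter set, which carried the rise. Which transcripts these sets detect was not tested. The second probe set of NDUFB10 was also higher at 24 h than at 6 h, by 0.22 ± 0.06 (adjusted p = 0.0268). Over all 152 single-symbol probe sets of the members, 11 (7.24%) were called at 24 h against vehicle, where 5.66% of all probe sets were, with 6 higher and 5 lower. Between 24 h and 6 h, 15 (9.87%) were called, where 9.71% of all probe sets were, with 11 higher and 4 lower.

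Genes that build or feed the chain were read from further lists. Each gene was represented by its brightest probe set, and any other probe sets of the list genes called were not examined. Of 61 assembly factors, which insert cofactors and join subunits, 0 were called at 6 h against vehicle, where 3.54% of all genes were. At 24 h, 7 were higher and 6 lower than vehicle. That was 21.3%, against 8.17% of all genes and 14.3% of all genes above the median signal. FMC1, needed for ATP synthase assembly in yeast, rose by 0.49 ± 0.07 log2 units (SE, limma adjusted p = 0.00115), and SDHAF4, which helps mature succinate dehydrogenase, by 0.53 ± 0.14. The complex I assembly factors NDUFAF3 and NDUFAF1 rose by 0.46 ± 0.08 and 0.29 ± 0.06, and DMAC2, PET100 and ATPAF1 by 0.26, 0.24 and 0.25. The complex IV factors COX16 and CMC2 fell by 0.24 ± 0.06 and 0.22 ± 0.05, HIGD1A by 0.28 ± 0.06, and NDUFAF6, NDUFAF8 and the complex III factor TTC19 by 0.25, 0.23 and 0.19. At 24 h against 6 h, 12 assembly factors were higher and 5 lower, and FMC1 differed most, by 0.66 ± 0.07 (limma adjusted p = 1.11e-04). Their share was 27.9%, against 13.8% of all genes and 24.3% of all genes above the median signal. The assembly factors were not matched to other genes by signal.

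Among 19 regulators of mitochondrial biogenesis, PPARGC1A stood apart from the subunit genes in size. It encodes PGC-1α, the coactivator that drives mitochondrial genes in fasted liver and muscle. It read 6.40, 6.18 and 6.14 in vehicle, 5.75, 5.58 and 5.48 at 6 h and 6.74, 6.93 and 6.72 at 24 h. All its vehicle and 6 h values lay below the median signal of all genes, 6.74, so it was dimmer than most members. The groups did not overlap, and PPARGC1A fell by 0.64 ± 0.09 at 6 h (SE, limma adjusted p = 0.00351) and rose by 0.56 ± 0.09 at 24 h (adjusted p = 0.00377), both against vehicle. POLG2, of the mitochondrial DNA polymerase, fell by 0.22 ± 0.06 at 24 h against vehicle, and the other 17 were not called. PPARGC1A and POLG2 made 10.5% of the list, against 8.17% of all genes called in that comparison. At 6 h against vehicle the share was 5.26%, against 3.54% of all genes. Between 24 h and 6 h, PPARGC1A and ESRRA, a nuclear receptor partner of PGC-1α, were higher and MTERF1 lower, 3 of 19. That was 15.8%, near the 13.8% of all genes. NRF1, GABPA and YY1 were not called in any comparison.

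Of 8 measured carriers and channels, UCP2, an inner membrane carrier, rose by 0.56 ± 0.07 at 24 h against vehicle (SE, limma adjusted p = 5.63e-04), and the other 7 were not called. UCP2 was also the only one called between 24 h and 6 h (0.33 ± 0.07, limma adjusted p = 0.00731). In both comparisons the share was 12.5%, against 8.17% and 13.8% of all genes. Of 11 measured Krebs cycle genes, IDH3A, of the NAD-dependent isocitrate dehydrogenase, fell by 0.21 ± 0.06 at 24 h against vehicle (adjusted p = 0.0487) and the other 10 were not called. Between 24 h and 6 h, IDH3A differed by -0.25 and MDH2, the mitochondrial malate dehydrogenase, by 0.26, and both were called. The shares of Krebs cycle genes called were 9.09% at 24 h against vehicle and 18.2% against 6 h. Over all genes they were 8.17% and 13.8%. Of 7 measured hypoxia controls, 3 were called at 24 h against vehicle, all higher. That was 42.9%, against 8.17% of all genes and 14.3% of all genes above the median signal. PDK1, which restrains pyruvate oxidation, rose by 0.70 ± 0.15, BNIP3, a mitophagy receptor, by 0.46 ± 0.11 and EGLN3, an oxygen sensor, by 0.38 ± 0.07. Their limma adjusted p were 0.0155, 0.0252 and 0.00558. Between 24 h and 6 h, 4 were higher, these 3 and LONP1 (0.27), and 1 was lower, HIF1A (-0.24). That was 71.4% of the 7 genes, against 13.8% of all genes and 24.3% of all genes above the median signal. This list is small and was not matched to other genes by signal. The isoforms of the chain known to rise in hypoxia were not called: COX4I2 is given above, and COXFA4L2, formerly NDUFA4L2, averaged 6.26 ± 0.09 at 24 h and 6.30 ± 0.00 in vehicle (SD, n = 3 arrays each).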

How the data were processed

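Gene expression was measured on 9 Affymetrix arrays of HepG2 cells. The deposited values are log2 probe set signals, made by RMA without a stated version per the submitters' processing notes; neither the software nor the chip definition is stated. The values run from 2.66 to 15.0 with 0 missing and were used unchanged, with no pseudocount or filter.

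Of 54675 probe sets, 41091 non-control sets carried 1 gene symbol by GEO's platform annotation and gave 19775 genes, each represented by its set with the highest mean over 9 arrays. A model of 3 group means over the 9 arrays was fitted by lmFit and eBayes (default prior, 11.0 total degrees of freedom) of limma 3.58.1 in R 4.3.3; files were read with data.table, version 1.17.8. Each of the 3 comparisons was tested two-sided and adjusted by Benjamini-Hochberg over all genes; the fit was tested on simulated data. With 3 arrays in each group, exact permutation p-values cannot go below 0.1. Lists were described by counts only, and promoters were searched for exact motif letters.

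The members, lists, motifs and tests were chosen with earlier results of these data known. The genes named were the called members, the largest change of each complex and comparison, complex II and the complex IV isoforms. NDUFB3, NDUFS1, NDUFS7, NDUFV1, CYC1, UQCRQ, ATP5MC3 and the F1 genes were added after their values were seen. Alternatives were a replicate block, only the compared groups, a trended robust prior, a signal filter, other choices of probe set, quantile normalization, median centring, array weights, stricter thresholds and each array left out. The probe sets taken singly were added after seeing the data.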

Additional observations from a re-analysis of the deposited data

Results flagged for a closer look

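The change from vehicle differed between 24 h and 6 h in 15 subunit genes, 19.2% of the 78, against 13.8% of all genes. The difference itself was tested with limma, as the mean of the 24 h arrays minus that of the 6 h arrays (n = 3 each), from which the vehicle group cancels. On this log2 scale NDUFA7 differed by 0.43, NDUFV3 by 0.37, NDUFB1 by 0.32, NDUFB10 by 0.31, NDUFC1 and NDUFB11 by 0.26 each, NDUFA1 by 0.25 and NDUFA3 by 0.21. NDUFS4 differed by -0.20, CYCS by -0.33, UQCRC1 by 0.27, COX7A2L and COX8A by 0.24 each, ATP5MC1 by 0.36 and ATP5MC2 by 0.33. In all 15 genes the 3 arrays of 24 h lay entirely apart from those of 6 h, as they did in 33% of all genes. The calls came from these same arrays, so the separation adds no support to them.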

How the results depend on the processing

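At 6 h against vehicle the count of called members was 0 under every alternative but 1: without probe sets of shared probes, NDUFA6 was called through another probe set (0.25, limma adjusted p = 0.0462). At 24 h against vehicle (7 called) and 24 h against 6 h (15 called), the intensity trend with a robust prior gave 15 and 25 calls. Genes above the median signal gave 13 and 24, with both the fit and the adjustment made over those genes only. An adjusted p under 0.01 gave 4 and 9, and a change of at least 1.5-fold gave 0 and 0. The mean of all probe sets gave 4 at 24 h against vehicle, COX7A2L, NDUFA3, NDUFB10 and NDUFC1, of which only COX7A2L is among the 7. Without probe sets of shared probes, 66 members were left: 5 were called at 24 h against vehicle, 2 higher (COX7A2L, NDUFA7) and 3 lower (CYCS, NDUFS4, ATP5MG), and 7 at 24 h against 6 h, 4 higher and 3 lower. There the differences of NDUFB1, NDUFV3 and ATP5MC2 reversed, to -0.054, -0.13 and -0.19 against vehicle and -0.051, -0.25 and -0.13 against 6 h, as they did with the next brightest set, where NDUFA7 also reversed (-0.22 and -0.16). Leaving out 1 array gave 0 at 6 h, 5 to 13 at 24 h against vehicle (13 without vehicle replicate 2) and 9 to 20 at 24 h against 6 h (9 without 6 h replicate 1 or 3, 20 without vehicle replicate 2). A replicate block gave counts of 0, 6 and 12. The labels do not say whether the numbers pair the arrays. Deviations from the group means correlated at -0.20 to 0.09 between same-numbered arrays and at -0.24 to 0.25 between others. With 3 arrays per group these values cannot settle whether the arrays are paired. The block's lost calls were NDUFS4 in both comparisons, and NDUFA3 and COX8A at 24 h against 6 h. Quantile normalization moved the member median at 24 h against 6 h to 0.02, and without shared probes it was 0.01. The shares of all genes called under these alternatives are not given here. The counts alone therefore do not show a change particular to the members. The causes were not tested. The median standard error of 0.06 that 3 arrays per group give limits what could be called.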

Other observations

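Genes beside the 78 members gave further values on the same machinery, chosen after their values were seen. The platform annotation also names probe sets for COX1, COX2 and COX3, the subunits of complex IV that the mitochondrial genome encodes. COX1 averaged 14.84 ± 0.24 on the vehicle arrays, 14.94 ± 0.00 on the 6 h arrays and 14.91 ± 0.01 on the 24 h arrays (SD, n = 3 in each group). In the same order COX2 averaged 14.89 ± 0.02, 14.87 ± 0.01 and 14.84 ± 0.02, and COX3 averaged 8.90 ± 0.17, 8.84 ± 0.04 and 8.86 ± 0.10. COX1 and COX2 lie at the top of the scale, where the highest value on any array is 15.02, and saturation of these probe sets was not tested, so that their values show neither a change nor its absence. COX3 differed by at most -0.06 from vehicle. None of the 3 was called in limma.

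COXFA4, formerly NDUFA4 and now counted to complex IV, averaged 12.20 ± 0.04 in vehicle, 12.17 ± 0.01 at 6 h and 12.12 ± 0.10 at 24 h, and was not called. A second probe set of NDUFA6, a complex I accessory subunit, was lower at 24 h than at 6 h by -0.42 ± 0.06 (SE, limma adjusted p = 0.00108 over all single-symbol probe sets). Its brightest set differed by -0.17 ± 0.06 and was not called. A dimmer probe set of ATP5MG, a membrane subunit of the ATP synthase, was lower at 24 h than in vehicle by -0.28 when probe sets of shared probes were left out (adjusted p = 0.0297), whereas its brightest set was not called.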
